A study of Mus musculus with 3 samples.

Results

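The genes described here are 402 mostly single-exon transcription units whose status in the GENCODE M21 mouse annotation is provisional or intronic. A gene was taken when each of its annotated transcripts was of type TEC, the label for units that still await experimental evidence, or sense_intronic, and when its mean expected count over 3 libraries was 10 or more. Of 55536 annotated genes, 3542 had only transcripts of these types, 1576 of those had any count, and 402 (11.3% of the 3542) reached the minimum. The 402 members comprised 371 TEC genes, 30 sense_intronic genes and 1 gene with a transcript of each type. Because the minimum was set on the mean count, the level of the members is a property of the choice and not a result, and a mean over libraries of unequal depth favours genes that are high in the deepest library. At the boundary, Gm44249, Gm47657 and Gm38070 each had a mean of exactly 10 counts, with 9, 4 and 17, with 2, 3 and 25, and with 3, 2 and 25 in replicates 1, 2 and 3. Just below it lay Gm43312 (4.75, 1 and 23.38 counts), Gm37639 (8, 4 and 17) and Gm9694 (6, 0 and 23). These raw counts are not scaled for depth, and replicate 3, the deepest library, was highest in each of these genes.

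TEC genes were annotated from clusters of unspliced cDNA ends with signs of polyadenylation, and sense_intronic genes lie inside an intron of another gene, on the same strand and without overlapping its exons. Introns are transcribed as part of the precursor RNA, removed in the nucleus by the spliceosome and degraded there, so an RNA that lies within an intron can stem from a transcription unit of its own or from the precursor of the gene around it. Short-read counts over such a unit do not tell these sources apart. A fraction of cytosolic RNA holds mainly spliced messages, and nuclear RNA reaches it when nuclei leak or break during fractionation.

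The annotated 3′ ends give a first view of what the members are. The last 60 bases are printed for the 3 members with the highest mean count and the 4 with the smallest adjusted p in the test of spread between libraries, which are 6 genes because Gm37084 is on both lists. They were read from the GENCODE M21 transcripts (build mm10), and capitals mark the AATAAA closest to the end within the last 50 bases, the most common signal for cleavage and polyadenylation.
Gm44250, chr6:5216258-5216317, minus strand: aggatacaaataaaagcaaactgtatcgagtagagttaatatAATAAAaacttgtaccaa
Peg13, chr15:72805600-72805659, minus strand: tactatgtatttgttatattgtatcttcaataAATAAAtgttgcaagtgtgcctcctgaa
Gm37084, chr1:131086252-131086311, minus strand: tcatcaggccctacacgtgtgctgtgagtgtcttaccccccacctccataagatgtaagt
Gm37033, chr1:180364939-180364998, plus strand: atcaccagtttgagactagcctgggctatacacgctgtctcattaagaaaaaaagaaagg
Gm38357, chr3:51234321-51234380, plus strand: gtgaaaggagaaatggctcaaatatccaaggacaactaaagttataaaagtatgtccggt
Gm45223, chr7:90137570-90137629, plus strand: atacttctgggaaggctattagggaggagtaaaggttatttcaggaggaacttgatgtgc
The first pair, which the test described further on did not call, carried the motif 18 and 28 bases from the end, counted from its first base. The other 4, which varied between the libraries, did not hold these 6 letters in that window.

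RNA was measured by total RNA-seq after ribosomal RNA depletion in 3 libraries from the cytosolic fraction of macrophages derived from C57BL/6J mouse bone marrow. The cells had received 100 ng/ml Lipid A, the part of bacterial lipopolysaccharide that Toll-like receptor 4 recognises, for 40 minutes. The libraries form a single group of biological replicates 1, 2 and 3, each made from 1 µg of RNA. Their records share 1 donor, and neither age nor sex was collected, so a p-value here speaks for the spread among these 3 libraries alone, part of which may be technical. No untreated, nuclear or whole-cell library was analysed here, so no value is an effect of Lipid A or of the fractionation.

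Expected counts in genes summed to 37861150, 37136495 and 58889061 in replicates 1, 2 and 3, and 3 counts, taken as the limit that a count of 0 allows, correspond to 0.0792, 0.0808 and 0.0509 CPM, which are counts scaled to the summed counts in genes. Replicate 3 was thus the deepest library, and some RNAs described as nuclear were higher in it, as given further on. The labelled cell type was matched by its markers, since 8 of 8 macrophage markers had a mean of at least 1 TPM. Among markers of other cells, 3 of 5 for neutrophils reached that level, with Ly6g at 0, and 0 of 17 did for the dendritic, lymphocyte, stromal, erythroid and mast or basophil lists. In bulk RNA, fewer cells of a type and less RNA per cell cannot be told apart.

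The members were scarce RNAs. Together they took 0.0424% of the counts in replicate 1 (95% Wilson interval 0.0418 to 0.0431), 0.0322% in replicate 2 (0.0317 to 0.0328) and 0.0702% in replicate 3 (0.0695 to 0.0709), intervals that cover counting error only. Replicate 3 was the highest and replicate 2 the lowest, with a ratio of 2.18 between them and of 1.66 between replicates 3 and 1. The mean share was 0.0483% ± 0.0197 (SD, n = 3). The median member stood at 0.396, 0.242 and 0.756 CPM in the same libraries, and 2, 32 and 1 members had a count under 1. The 5 members of highest count held 20.8% of the members' counts. Over all genes of these types, with no minimum, the shares were 0.0478%, 0.0352% and 0.0816%, and 1165, 729 and 1473 genes had a count of at least 1. Replicates 1 and 2 thus differed in the number of such genes at nearly equal totals of counts.

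Per length, the median member stood at 0.227 FPKM (fragments scaled to length and library size, as deposited), against 7.51 FPKM for all genes with a mean count of 10 or more, and 358 of the 402 were below 1 FPKM. Their annotated lengths ran from 229 to 30942 bases with a median of 2558.5, against 1778.5 for genes of these types under the minimum. Members lay on 20 chromosomes. Single-exon genes made up 388 of the 402, while 12 had 2 exons and 2 had 3 exons, and 13 of these 14 spliced genes were sense_intronic.

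Variation between the libraries was tested for all genes with edgeR's goodness-of-fit test against the trend of dispersion, which asks whether a gene spreads more between the 3 libraries than genes of its abundance (Benjamini-Hochberg adjusted p under 0.05). The filter on low counts let through 171 members, none with under 10 counts in any library, and left 231 untested. Of the 171, 36 varied (21.1%), against 209 of 12250 genes in all, which is 1.71%. At an unadjusted p under 0.05 the counts were 73 members and 6.15% of all genes. Replicate 3 was highest in 35 of the 36 and replicate 2 lowest in 35. Among the 209 genes called in all, replicate 3 was highest in 130 and replicate 2 lowest in 135. These are 1.06% and 1.1% of the 12250 genes tested. Under a filter that asked only for a mean count of 10, all 402 members were tested and 44 were called (all genes 1.97%), of which 24 were among the 36 and 20 had been untested before.

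The count depended on which libraries entered, and most on replicate 3. Each fit without a library also has fewer degrees of freedom and tests another set of genes. Without replicate 3 the count fell to 4 of 172 members tested (all genes 0.479%), each among the 36. Without replicate 2 it was 14 of 323 (all genes 0.993%), of which 12 were among the 36, and without replicate 1 it was 23 of 214 (all genes 0.9%), of which 22 were. Replicates 1 and 2 alone thus differed beyond the trend in few members at this depth. Gm20236 and Gm37094, named here after their values were seen, are equal-length copies on chromosome 14 with the same value in every library, 2.19, 0.633 and 3.64 CPM, so their reads cannot be assigned to either and their 2 calls are not separate.

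The strongest variation was in Gm37033 (ENSMUSG00000104388.1, chromosome 1, 180357649 to 180364998, plus strand), a TEC gene in an intron of Itpkb, the gene of an inositol trisphosphate kinase. It stood at 3.78, 0.862 and 15.96 CPM in replicates 1, 2 and 3 (edgeR adjusted p = 3.61e-16). Replicate 3 was 18.5 times replicate 2, and the call was lost without replicate 3. Itpkb itself stood at 213, 237 and 292 CPM and was not called. The other 2 members in Itpkb introns, Gm36933 and Gm37390, named because they share that gene, had 1.48, 0.0808 and 5.60 CPM and 0.370, 0 and 1.65 CPM, and were not tested because of their low counts. All 3 members had the order replicate 3, then 1, then 2, and together they stood at 5.63, 0.942 and 23.2 CPM.

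Gm38357 (ENSMUSG00000103313.1, chromosome 3, 51231917 to 51234380, plus strand) lies in an intron of Noct, the gene of nocturnin, a circadian dinucleotide phosphatase. It stood at 5.78, 1.56 and 17.2 CPM (edgeR adjusted p = 8.79e-13), with replicate 3 highest by 2.57 on the log2 scale. It kept its call in each alternative that was run, with a highest adjusted p of 0.0406. Here the surrounding gene moved as well, since Noct stood at 24.7, 20.1 and 69.3 CPM (edgeR adjusted p = 3.19e-12) and was higher in replicate 3 by 1.72.

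Picalm, which encodes a clathrin assembly protein of endocytosis, held 4 members in its introns, and all 4 varied. Gm45223 had 5.07, 1.62 and 14.04 CPM (edgeR adjusted p = 2.01e-09), and Gm45222 had 3.17, 2.77 and 11.8 CPM (edgeR adjusted p = 2.17e-05). Gm45221 had 2.43, 1.35 and 8.27 CPM (edgeR adjusted p = 8.09e-05), and Gm45220, named because it shares the gene, had 1.56, 0.754 and 5.89 CPM (edgeR adjusted p = 0.000194). In each of them replicate 3 was highest and replicate 2 lowest. Their sum was 12.2, 6.49 and 40.0 CPM, while Picalm stood at 416, 451 and 452 CPM, a difference of 0.15 on the log2 scale between replicate 3 and the mean of the others. The calls of Gm45221, Gm45222 and Gm45223 were lost without replicate 3.

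Members of small adjusted p also lay in Mapkapk2, Nfkb1 and Spp1. Gm37084 lies in an intron of Mapkapk2, the gene of the kinase MK2 that acts below p38 and stabilises inflammatory messages, and stood at 13.5, 3.37 and 16.9 CPM (edgeR adjusted p = 1.71e-07). It differed from the rest in that replicates 1 and 3 were close and replicate 2 was low, and the call was lost without replicate 2. Mapkapk2 stood at 350.0, 393 and 281 CPM, lowest where the member was highest, and was not called. Gm43430, in an intron of Nfkb1, the gene of the p105 and p50 proteins of NF-κB, had 2.67, 0.458 and 7.12 CPM (edgeR adjusted p = 3.23e-07), and its call was lost without replicate 2, whereas Nfkb1 had 98.8, 93.2 and 92.4 CPM and was not called. Gm42793 overlaps an exon of Spp1, the gene of osteopontin, on the same strand and had 5.63, 3.19 and 14.6 CPM (edgeR adjusted p = 9.97e-06), with Spp1 level at 2153, 2230 and 2156 CPM. The Gm42793 call was lost without replicate 3.

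The other members among the 12 of smallest adjusted p had the same order of libraries. Gm37589 lies in an intron of Mbnl1, which encodes a splicing regulator, with 1.43, 0.377 and 5.196 CPM (edgeR adjusted p = 1.19e-05). Gm43323 overlaps an exon of Rbm47, which encodes an RNA-binding protein, with 2.09, 0.431 and 5.55 CPM (edgeR adjusted p = 2.77e-05). Gm48302, a sense_intronic gene in Ell2, which encodes a transcription elongation factor, had 1.37, 0.350 and 4.36 CPM (edgeR adjusted p = 0.000116), and Gm47586 in 2010111I01Rik had 0.924, 0.350 and 3.96 CPM (edgeR adjusted p = 0.000148). All 4 calls were lost without replicate 3, and those of Gm43323 and Gm48302 also without replicate 2. The largest differences of replicate 3 from the mean of the other libraries among tested members were 3.19 in Gm37033, 2.82 in Gm37589 and 2.77 in Gm47586, on the log2 scale.

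**Figure D1:**
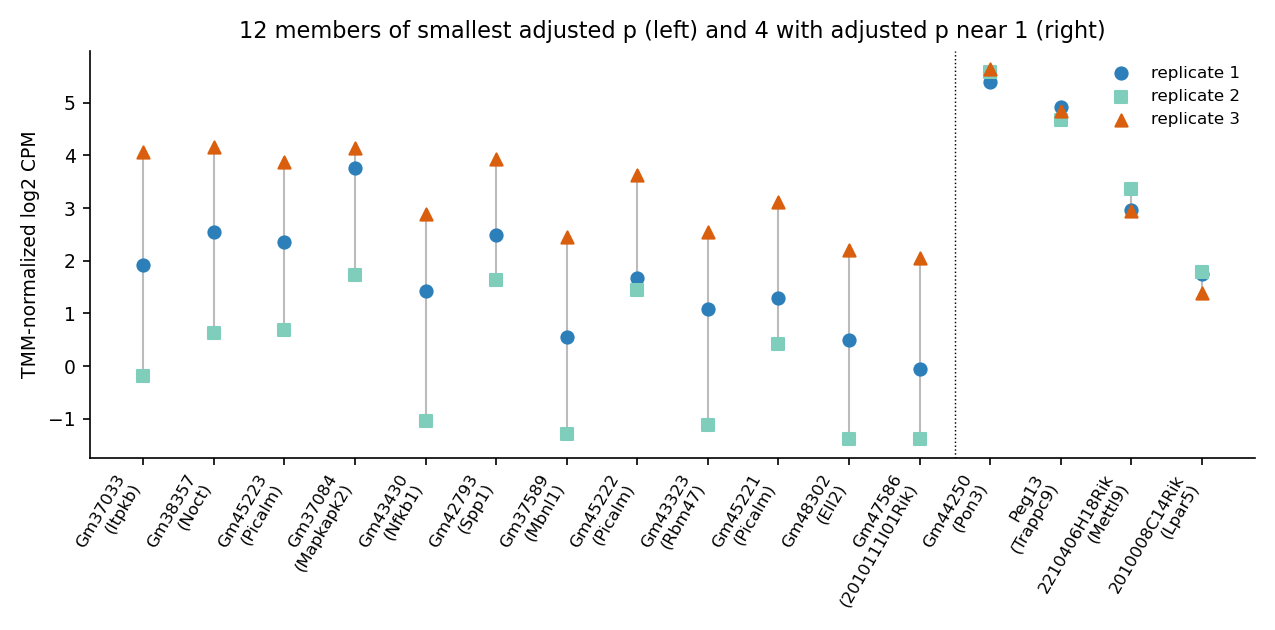
TMM-normalized log2 CPM (vertical axis) of the 12 members with the smallest adjusted p, left of the dotted line, and of 4 members with an adjusted p near 1, right of it, with the gene each lies in or follows in brackets. Each symbol is 1 library, and the grey line joins the lowest and highest. In the left group replicate 3 is highest and replicate 2 lowest in all 12, whereas the symbols of Gm44250 and Peg13 lie close together.

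Among the 10 members most abundant per length, Gm10252, Gm17024 and Gm42793 were called. Gm45236 and Gm37376 were not tested, and the others were tested and not called. Gm44250 (ENSMUSG00000107881.1, chromosome 6, 5216258 to 5220486, minus strand) starts 366 bases after the end of Pon3, the gene of paraoxonase 3, on the same strand. It stood at 41.9, 49.3 and 47.8 CPM and at 11.6 ± 1.00 FPKM (SD, n = 3). Its libraries lay within a narrow range with replicate 1 lowest, and the test did not call it (edgeR adjusted p = 1.00). Pon3 stood at a like level in counts, with 44.0, 41.6 and 42.1 CPM.

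Peg13 (ENSMUSG00000106847.1, chromosome 15, 72805600 to 72810324, minus strand) is an imprinted, paternally expressed noncoding RNA in an intron of Trappc9, and it is the sense_intronic gene with the highest count. It stood at 30.3, 26.3 and 27.7 CPM and 6.24 ± 0.437 FPKM, with an SD of 2.04 CPM, and was not called. Trappc9, which encodes a subunit of a vesicle tethering complex, stood at 31.2, 29.3 and 29.3 CPM. Of the members inside introns, Peg13 was thus one whose libraries were nearly level. 2210406H18Rik, on the opposite strand of a Mettl9 intron, had 7.82, 10.6 and 7.40 CPM (9.76 ± 2.02 FPKM), and 2010008C14Rik, 965 bases after Lpar5, the gene of a lysophosphatidic acid receptor, had 3.33, 3.53 and 2.46 CPM (8.503 ± 1.60 FPKM). Neither was called, and replicate 3 was the lowest library in both. Gm37560, in an intron of the antisense gene Gm10634, had 5.07, 4.36 and 7.998 CPM (7.52 ± 2.48 FPKM) and was not called (edgeR adjusted p = 0.918).

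Gm17024, a sense_intronic gene of 2 exons in Ifrd1, had 2.11, 1.94 and 8.18 CPM (10.02 ± 8.72 FPKM; edgeR adjusted p = 0.000623). Replicate 3 stood alone, the call was lost without it, and Ifrd1 was not called. Among the 14 spliced members 6 were tested, Gm17024 was the 1 called, and the median difference of replicate 3 from the mean of the others over all 14 was 1.26. The other sense_intronic members with the highest counts, Gm15708 in Bri3 and AC113485.1 in Sgms1, stood at 1.14, 0.916 and 1.32 CPM and at 1.02, 0.226 and 1.53 CPM. Gm15708 was not called and AC113485.1 was not tested. By type, 34 of 160 tested TEC genes and 2 of 11 tested sense_intronic genes were called, and the median differences of replicate 3 were 1.54 and 1.52.

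The remaining members of highest FPKM lie opposite exons of other genes, and no source used here states if counting took strand into account, so their reads cannot be told from those of the opposite gene. Gm10252 had the highest FPKM of all members at 15.25 ± 8.65 and lies opposite an exon of Ftl1, the ferritin light chain gene, which stood at 10375, 12025 and 12369 CPM. It had 14.1, 3.59 and 10.1 CPM (edgeR adjusted p = 0.000281), the only called member in which replicate 3 was not the highest, and it lost its call when either replicate 1 or replicate 2 was left out, and again on the second set of transcript counts. In that second table it had 50.7, 65.2 and 121 counts and 0.642, 0.853 and 0.488 TPM, against 536, 133 and 592 counts and 16.1, 4.30 and 8.81 TPM in the gene table, so neither its high level nor its order of libraries held there. Gm37376, opposite an exon of the nuclear RNA Malat1, had 0, 195 and 0 expected counts in the gene table, whereas 22.5, 20.6 and 42.6 TPM were listed for it in the second quantification, which makes its value uncertain. The deposited posterior SD of its count was 34.55 in replicate 2 and 23.18 and 23.67 in replicates 1 and 3, where it was listed at 0. Gm45236, a gene of 229 bases opposite an exon of Gde1, had 0.652, 0 and 0.228 CPM and was not tested. Gm19918, opposite an exon of Fam20b, had 2.02, 1.03 and 1.66 CPM and was not called.

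Position relative to other genes was not used to choose the 371 TEC members. The type sense_intronic is itself defined by a place in an intron, so position entered the choice of members with that type. Of the 402, 245 lay in an intron of another gene on the same strand, 27 overlapped an exon on the same strand, 28 lay in an intron and 56 over an exon of a gene on the opposite strand. A further 19 began within 5 kb after the end of a gene on the same strand, 5 ended within 5 kb before the start of one, and 22 had none of these. The 245 intron members lay in 197 genes, 183 of them protein-coding.

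Members inside introns of the same strand differed between the libraries in concert. Their summed level was 205, 119 and 423 CPM in replicates 1, 2 and 3. The difference of replicate 3 from the mean of replicates 1 and 2, on a log2 CPM scale with a prior count of 2 that pulls low genes towards 0, had a median of 1.73 (quartiles 1.22 and 2.20), and replicate 3 was highest in 226 of the 245. Of 90 tested, 28 were called (31.1%), and these were 77.8% of all called members. Members of this position made up 90 of the 171 tested and 245 of all 402. Members over exons of the same strand had a median of 1.86 with 3 of 15 called. Any annotated exon counted here, including exons of small RNA genes without reads, and the overlapped genes had a median difference of 0. Members in introns of the opposite strand had a median of 1.85 with 2 of 10 called. Reads of the last group cannot be told from those of the gene opposite, since the strand setting of the counting is not stated.

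Members just after a gene end showed another picture. Their summed level was 66.6, 74.8 and 71.7 CPM, most of it from Gm44250 alone with 41.9, 49.3 and 47.8 CPM. The median difference of replicate 3 was -0.17, replicate 3 was highest in 5 of 19, and 0 of 13 tested were called. The median distance to the gene before them was 1059 bases, and 14 of the 19 followed a protein-coding gene. Apart from Gm44250 and 2010008C14Rik they included Gm43814, 1293 bases after Ccrl2, the gene of an atypical chemokine-like receptor. It had 1.08, 0.862 and 0.475 CPM, the lowest difference of replicate 3 among tested members, at -0.88, and Ccrl2 itself had 382, 335 and 247 CPM. The next lowest were Gm42815, opposite an exon of Zfp68, at -0.65 and Gm5112, with no gene near on the same strand, at -0.61. Members opposite exons and members with no gene near on the same strand lay between, with medians of 0.70 (2 of 31 tested called) and 0.50 (1 of 10). The 5 members before a gene start had a median of 0.80 with 0 of 2 called. The difference between the position groups was not tested, since members of 1 gene and 1 library are not replicates.

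**Figure D2:**
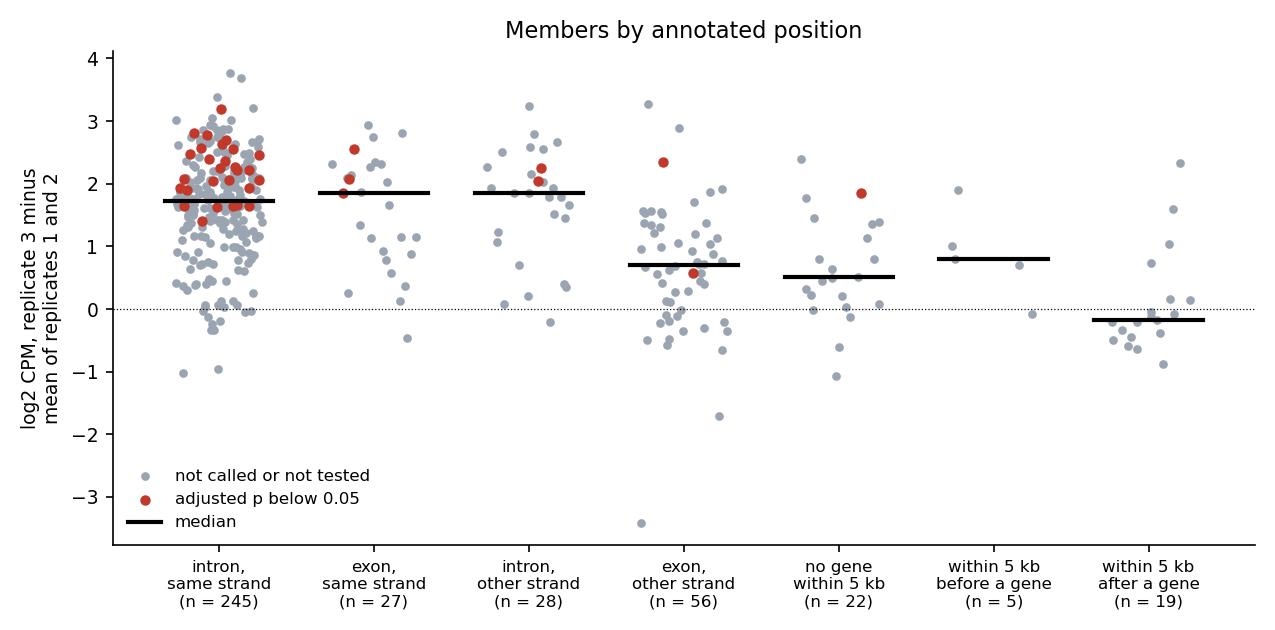
Difference of replicate 3 from the mean of replicates 1 and 2 in log2 CPM (vertical axis) for all 402 members, grouped by annotated position, with the number of members in brackets. Each point is 1 member, red where its adjusted p was under 0.05, and black lines are medians. The groups defined by 5 kb, also the one with no gene at that distance, refer to the same strand only. Members in introns of the same strand centre on 1.73 and those within 5 kb after a gene end on -0.17.

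The intron members were then set beside the genes that hold them. Of 188 holding genes tested, 6 were called (3.19%), and the median difference of replicate 3 over holding genes was 0.02. In the 238 pairs whose holding gene had a mean count of 10 or more, the member's difference exceeded that of its gene in 225 and by more than 1 in 185, with a median excess of 1.65. Across these pairs, which share libraries and are not independent, Pearson's r was 0.18 and Spearman's rho 0.27. The holding genes called were Noct and 5 named after their values were seen, namely the noncoding genes Lncpint, A330023F24Rik, 6720427I07Rik and Dleu2, all higher in replicate 3, and Mxd1. Dleu2 had 15.6, 15.8 and 36.0 CPM (edgeR adjusted p = 4.27e-05). Mxd1, which encodes a MYC antagonist, had 283, 384 and 144 CPM (edgeR adjusted p = 0.00404) and was the only one of the 6 lower in replicate 3. Its member Gm44292 had 0.924, 0.350 and 2.19 CPM, highest in replicate 3, and was not called (edgeR adjusted p = 0.0608).

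**Figure D3:**
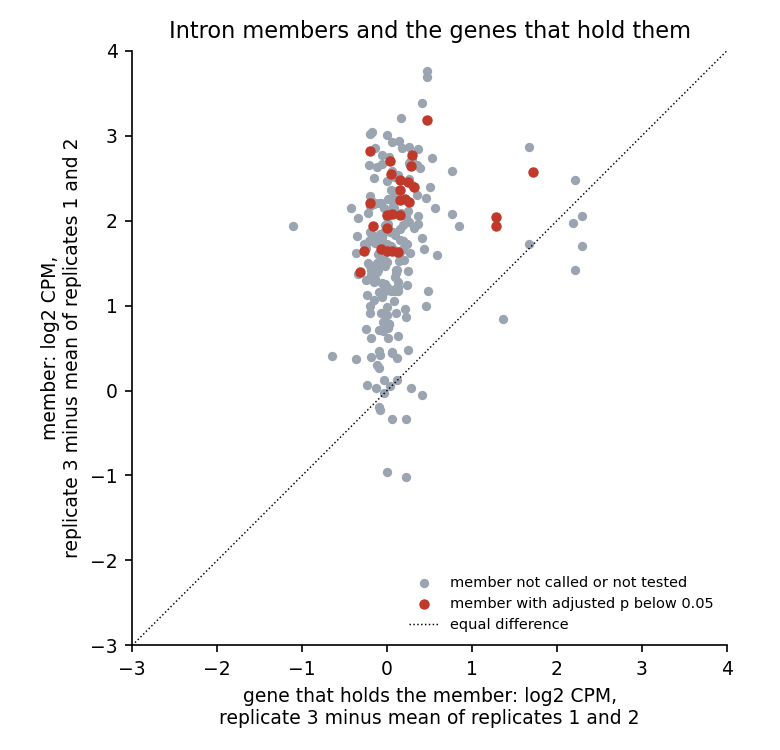
Difference of replicate 3 from the mean of replicates 1 and 2 in log2 CPM for the 238 intron members (vertical axis) against that of the gene that holds each (horizontal axis). Points are pairs, red where the member's adjusted p was under 0.05, and the dotted line marks equal differences. Most points lie above the line, in a column near 0 on the horizontal axis, and Noct and a few noncoding genes lie to the right.

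In 9 genes 3 or more intron members could be compared within 1 gene, 32 members in all, and each of the 32 was highest in replicate 3. Besides Picalm and Itpkb the genes were Cers6, Camk2d, Fli1, Dock10, Kansl1l, Med13l and Plxna2. The minimum on the mean count favours this direction, and several of the 32 passed it mostly through replicate 3. Of 129 intron members chosen on replicates 1 and 2 alone, replicate 3 was highest in 110, against 32.2% of all genes chosen so. The 5 members of Cers6, a ceramide synthase gene, summed to 4.91, 2.07 and 8.08 CPM against 187, 189 and 194 CPM for Cers6. The 4 members of Camk2d, a calmodulin-dependent kinase gene, summed to 2.61, 1.13 and 9.22 CPM against 83.9, 105 and 106 CPM for the gene. The 4 members of Fli1, which encodes an ETS transcription factor, summed to 0.872, 0.512 and 2.85 CPM against 132, 145 and 125 CPM. Over the 9 genes themselves the difference of replicate 3 ran from -0.10 in Kansl1l to 0.46 in Itpkb.

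Because a minimum on the mean count favours the deepest library, the direction is given first for the members and then for sets chosen without that minimum. Over all 402 members the median difference of replicate 3 was 1.54 (quartiles 0.71 and 2.08) and that of replicate 2 from the mean of replicates 1 and 3 was -1.31, against 0.01 and -0.01 for all genes with a mean count of 10 or more. Replicate 3 was highest in 83.6% of members and 34.5% of those genes, and 70.6% and 21.8% had the order 3, 1, 2. The share more than 1 above the mean of the other libraries was 66.9% of members and 5.55% of those genes. When genes were chosen on replicates 1 and 2 alone, 236 of these types qualified, replicate 3 was highest in 173 (73.3%, all genes chosen so 32.2%), and the median difference was 1.14 against -0.00322. In that set the 129 intron members had a median of 1.65 and the 42 opposite exons 0.43. The 13 with no gene near on the same strand had 0.32 and the 18 after a gene end -0.18. Chosen on replicate 3 alone, a set added after the data were seen, 655 genes of these types had replicate 1 above replicate 2 in 520 (79.4%, all genes chosen so 52.8%), with a median difference of 0.80 against 0.02.

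Some RNAs described as nuclear were also called and highest in replicate 3, while others were not. Of 10 nuclear lncRNAs on a list, 5 were tested, 4 were called and all 5 were highest in replicate 3, with a median difference of 1.91. Kcnq1ot1, an unspliced imprinted RNA bound to chromatin, had 7.37, 1.75 and 12.9 CPM (edgeR adjusted p = 9.90e-08), and Airn, the 1 tested and not called, had 0.423, 0.350 and 0.475 CPM. The 7SK RNA Rn7sk, which holds the elongation factor P-TEFb inactive, was higher by 1.37 in replicate 3 (edgeR adjusted p = 0.000790). All 17 tested snRNA genes were called, with a median of 2.20, though several are near-identical copies whose reads cannot be divided with certainty. Of snoRNA genes, which guide RNA modification in the nucleolus, 1 of 7 tested was called, and replicate 3 was highest in 7 of the 15 with a mean count of 10 or more. Over these 15 the median difference was still 1.11 for replicate 3, and it was -2.19 for replicate 2 against the mean of replicates 1 and 3. Of 10 cytoplasmic lncRNAs 8 were tested, 0 were called, 1 was highest in replicate 3 and the median was -0.18.

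Protein-coding genes varied less, with 93 of 11176 called (0.832%) and a median difference of -0.00314. Among lincRNA genes 14 of 208 were called, among antisense genes 9 of 176, among processed transcripts 13 of 128 and among processed pseudogenes 14 of 210. Transcripts annotated as retained introns, which are spliced apart from the intron they keep, took 1.36%, 1.49% and 1.57% of the counts in the first transcript table (1.47 ± 0.110). The part of nuclear RNA in the level of the members was not tested, as no nuclear library was analysed here.

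**Figure D4:**
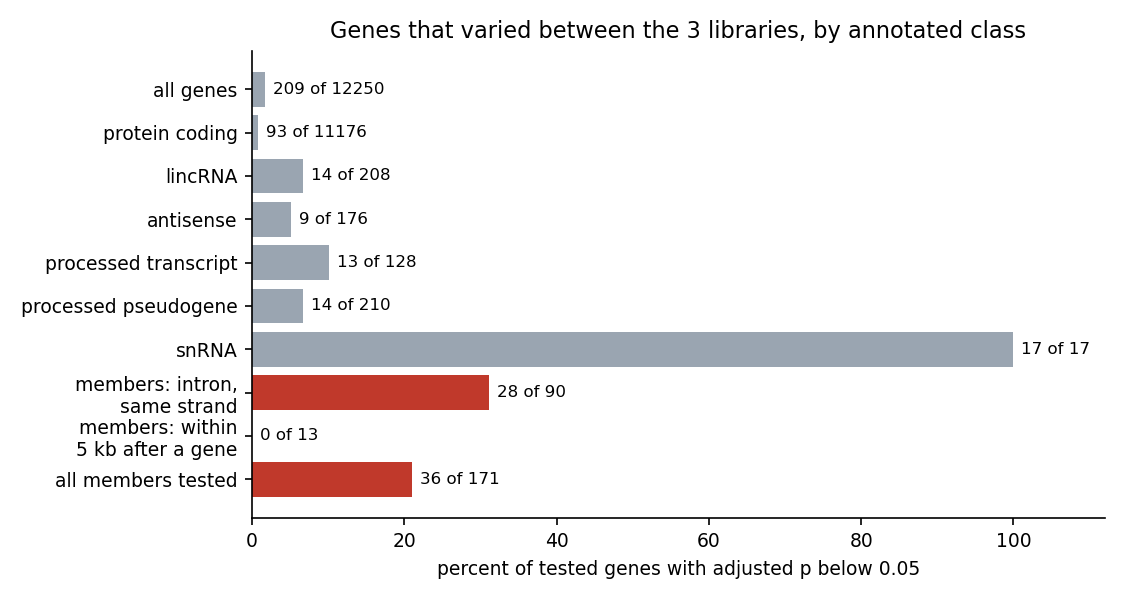
Percentage of tested genes with an adjusted p under 0.05 for the spread between the 3 libraries (horizontal axis, from 0), for all genes, for 6 annotated gene classes in grey and for members in red. The numbers beside the bars are genes called of genes tested. The 36 of 171 members compare with 209 of 12250 genes, and the members after a gene end have no call.

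The sequence at the annotated end differed with position. AATAAA was searched on the transcript strand in the last 50 bases, and 97 of the 402 members held it (24.1%), against 26.6% of 141672 annotated transcripts, 40.6% of protein-coding and 17.3% of retained-intron transcripts. Its letters on the other strand, TTTATT, were in 6.22% of members and 4.09% of all transcripts. Of members in introns of the same strand 41 of 245 held AATAAA (16.7%), as Peg13 does, and of those after a gene end 8 of 19 did (42.1%), as Gm44250 does. Of members in introns of the opposite strand 14 of 28 held it. It was in 4 of the 36 called members and in 48 of the 135 tested and not called (35.6%). Position was not held equal in that comparison, since intron members of the same strand were 28 of the 36 and 62 of the 135. Intron members with and without AATAAA had median differences of replicate 3 of 1.34 and 1.79, so both groups lay high. These shares are descriptions with no test, and a match of 6 letters is not evidence that the site is used.

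The second transcript table, which the authors derived from the same reads by another route, listed a count for all 402 members. It gave 28 calls among 243 members tested (all genes 1.53%), 22 of them among the 36. Replicate 3 was highest in 345 members there and in 326 in both tables. The mean count was more than 2 times that of the gene table in 48 members and the reverse held in 3, and Gm44249, at the boundary with 10 counts, had 912, 1076 and 1402 counts in the second table. In 12 members, 2 of them called, the deposited posterior SD exceeded 25% of the count, or of 1 where the count was lower, in a library, so the assignment of their reads is uncertain.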

How the data were processed

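Total RNA-seq of 3 libraries was analysed. Per the deposited notes, the authors quantified genes and transcripts on mm10 with GENCODE M21, while the tool names are not stated in those notes or in the labels. The deposited gene table holds expected counts, TPM, FPKM and a posterior SD of each count, made from a transcriptome alignment, and the deposited second transcript table holds estimated counts and TPM made from the reads directly. Rows without a gene ID, namely 97 spike-in and 26248 numeric entries with at most 0.314% of counts, entered neither library sizes nor tests. Expected counts were rounded to whole numbers and tested in edgeR 4.0.16 (R 4.3.3) with filterByExpr, TMM and an intercept-only fit at the trended dispersion. The deviance was compared with chi-square and adjusted by Benjamini-Hochberg over all genes. Log2 CPM used a prior count of 2. CPM printed for single libraries are not TMM-adjusted. TMM factors were 1.00, 1.04 and 0.961. With 3 libraries and low counts the precision is limited by both.

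Positions came from GENCODE M21, with genes within 5 kb on the same strand counted as near. Members were named as the 10 of highest mean FPKM, the 12 of smallest adjusted p, the 5 sense_intronic genes of highest count, the 3 on each side of the minimum, and the 3 largest and 3 smallest differences of replicate 3 among those tested. Members in a gene described for several members were named with it. The members and lists were chosen with earlier results of these data known. Alternatives were DESeq2 1.42.0 size factors, 2 other count filters, 7SL and 7SK left out, scaling by protein-coding genes, the second transcript table, each replicate left out, and 3 other choices of members. The test was tried on simulated data first.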

Additional observations from a re-analysis of the deposited data

Results flagged for a closer look

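A signal appeared in features that no comparison above uses. Of 97 spike-in features in the gene table, 1 had counts, the phiX174 sequencing control, and it took 0.314%, 0.0927% and 0.0533% of the counts in replicates 1, 2 and 3. These shares exceeded what a count of 0 allows, which is 3 counts, in each library. Replicate 1 was highest and replicate 3 lowest, an order unlike that of the members.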

How the results depend on the processing

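The count of members that varied was 36, and it lay between 28 and 44 under the other scalings, filters, quantification and choices of members. Choosing members on replicates 1 and 2 could not change it, since every tested member had at least 10 counts in each library. The count was 36 with DESeq2 size factors, with 7SL and 7SK left out and with scaling by protein-coding genes, 30 with no filter, 44 with a mean count of 10 as the filter and 28 in the second transcript table. When 1 replicate was left out it ranged from 4 (without replicate 3) to 23 (without replicate 1), and 2 libraries give fewer degrees of freedom. The median difference of replicate 3 stayed positive, from 1.08 to 1.89, and that of replicate 2 negative, from -1.89 to -0.81. The mean share of counts stayed between 0.0350% and 0.0655%. A share has no value under another scaling or filter, and the difference of a replicate has none without that replicate. Of 24 named members tested, 14 were called, of which 10 lost their call without replicate 3, 5 when replicate 2 was left out, 1 when replicate 1 was, and 1 on the second transcript counts, while none did under the other scalings and filters. Neither median changed sign under the alternatives run, but the direction of single members could change, since replicate 3 was highest in 336 members in the gene table and in 326 of these in the second table as well. No paired analysis was possible because all libraries belong to 1 group. Precision is limited by low counts, with a median member under 1 CPM in each library, and 231 members could not be tested with the main filter.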
